A study of Mus musculus with 2 samples.

Results

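The miR-199/214 genes of the mouse are Mir199a-1, Mir199a-2, Mir199b and Mir214, and they were chosen by name in the GENCODE M21 annotation, 4 of the 2202 microRNA (miRNA) genes counted. They were measured by microRNA-seq in the adrenal gland, taken at an age of 36 days from females of B6CASTF1/J, a first-generation hybrid strain, with no treatment or second condition given in the labels. There are 2 libraries in 1 group, called biological replicate 1 and biological replicate 2 in the labels, which tie them to separately numbered females, but also to the same donor identifier. It is therefore not certain that they came from 2 animals, and the tests below measure differences between these libraries and not between conditions. Replicate 1 held 5397603 sense counts on miRNA genes and replicate 2 held 3029977. Reads that mapped to several places, 28.5% of all reads in replicate 1 and 30.6% in replicate 2, were in no gene's count.

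A miRNA gene is transcribed as part of a longer RNA, from which a hairpin is cut out, and the arms of the hairpin give mature miRNAs that repress messenger RNAs mainly through the seed, bases 2 to 8. The miR-199/214 genes are known from mesenchyme, fibroblasts and other connective tissue cells. In mice, loss of Dnm3os, the noncoding RNA that carries Mir199a-2 and Mir214, disturbs skeletal growth, and both miRNAs have been linked to fibrosis. The adrenal gland has a capsule and a stroma with such cells around its steroid-producing cortex and its catecholamine-producing medulla. The tables hold miRNA genes and no messenger RNAs, so fibroblast marker messages were not measured and the counts do not show in which cells the miRNAs were made.

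All 4 genes lie opposite to a dynamin gene, one of the paralogs for membrane-pinching GTPases. In mm10 with GENCODE M21, Mir199a-2 (chromosome 1, 162217814 to 162217923, plus strand) and Mir214 (chromosome 1, 162223368 to 162223477, plus strand) lie 5444 bases apart, each within an exon of 2 of the 6 annotated Dnm3os transcripts, and each within an intron of Dnm3 on the other strand. Mir199b (chromosome 2, 32318460 to 32318569, plus strand) lies opposite an intron of Dnm1. Mir199a-1 (chromosome 9, 21496495 to 21496564, minus strand) lies opposite an intron of Dnm2. No annotated miRNA gene overlaps any of them on the other strand.

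The sequences decide what a count of each gene can hold, because a read is counted only where it fits 1 place. All 4 hairpins matched the RefSeq table of GRCm38.p6, the build of mm10, and they equal the GENCODE transcripts. They are given from 5′ to 3′ with the listed mature arms in capitals.
Mir199a-1: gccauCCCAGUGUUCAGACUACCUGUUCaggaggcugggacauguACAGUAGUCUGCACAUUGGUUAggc
Mir199a-2: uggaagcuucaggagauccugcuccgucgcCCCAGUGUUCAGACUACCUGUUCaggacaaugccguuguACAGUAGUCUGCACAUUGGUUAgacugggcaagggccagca
Mir199b: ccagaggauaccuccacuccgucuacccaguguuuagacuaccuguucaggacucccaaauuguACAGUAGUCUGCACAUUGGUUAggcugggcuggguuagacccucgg
Mir214: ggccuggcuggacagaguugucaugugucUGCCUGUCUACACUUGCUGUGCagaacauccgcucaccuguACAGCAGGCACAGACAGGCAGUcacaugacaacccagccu

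The mature sequences listed in RefSeq fall into 4 seed groups, and are shown with the seed in capitals because it sets the predicted targets. No 5p sequence was listed there for Mir199b, which does not show that the gene gives none.
miR-199a-5p, of Mir199a-1 and Mir199a-2: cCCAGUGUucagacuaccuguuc
miR-199a-3p and miR-199b-3p, of all 3 miR-199 genes: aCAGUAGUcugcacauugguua
miR-214-5p: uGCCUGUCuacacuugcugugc
miR-214-3p: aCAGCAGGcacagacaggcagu
Apart from the members, the seeds were found in 1 other mature sequence of the table, miR-761, which has the seed of miR-214-3p. Its gene Mir761 had 0 counts in both libraries.

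The 3 miR-199 hairpins hold the same 3p arm, and the Mir199a-1 and Mir199a-2 hairpins hold the same 5p arm. Mir199a-1 and Mir199a-2 share 27 bases without a break around the 5p arm and 26 around the 3p arm. Around the 3p arm, Mir199b shares 28 bases with Mir199a-1 and 27 with Mir199a-2. A read that lies within such a stretch fits both hairpins equally, and the labels give a size range below 30. In the place of miR-199a-5p the Mir199b hairpin has a stretch that differs by 1 base, C10U, counted from 1 at the 5′ end of miR-199a-5p, with the differing base in capitals below.
Mir199b stretch: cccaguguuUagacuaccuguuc
Reads of this stretch could thus be told from those of the miR-199a genes among the annotated hairpins. The Mir214 hairpin shares at most 7 bases in a row with any of the other 3, and neither of its arms occurs in another annotated miRNA hairpin. Of the 20-base windows of each hairpin, those found in no other annotated miRNA hairpin were 34 of 51 for Mir199a-1, 75 of 91 for Mir199a-2, 81 of 91 for Mir199b and 91 of 91 for Mir214. A search of the whole genome was not made here.

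**Figure D1:**
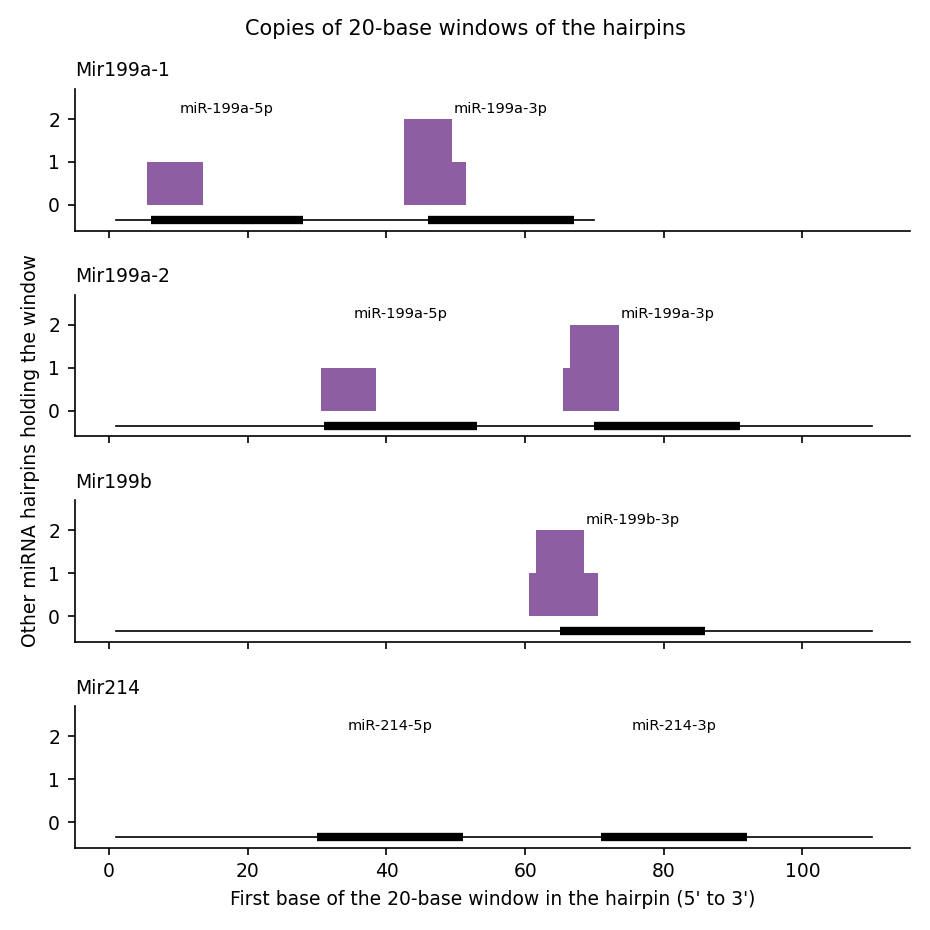
Number of other annotated miRNA hairpins that hold each 20-base window (bars), by the window's first base in the hairpin, for the 4 genes, with the hairpin as a thin line and its listed mature arms as thick black lines. The windows in the arms of the miR-199 genes are shared with 1 or 2 other hairpins, while the 91 windows of Mir214 are shared with none.

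Of the 4 genes, 3 reached 10 counts or more in each library, against 15.4% of all miRNA genes. Levels are given as CPM, the sense reads of a gene per 1000000 sense reads of all miRNA genes in that library, with 95% Wilson intervals that cover counting error only. Each sequenced miRNA gives 1 read whatever the length of its hairpin, so levels were not divided by length. The yield of library preparation can still depend on sequence. Nearly all counts of the set came from Mir214. Its 2 libraries differed widely. The detected miR-199 genes stood lower, with 22.4% of the detected genes below Mir199b in mean level and 6.19% below Mir199a-2.

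Mir214 had 8248 counts in replicate 1 and 799 in replicate 2. The level in replicate 1 was 1528 CPM (1495 to 1561), that in replicate 2 was 264 CPM (246 to 283), a mean of 896 ± 894 CPM (SD, n = 2). The gene ranked 57th among all miRNA genes in replicate 1 and 123rd in replicate 2. The 2 intervals lie far apart, and the SD was about as large as the mean.

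Mir199b had 75 counts in replicate 1 and 63 in replicate 2. The level in replicate 1 was 13.9 CPM (11.1 to 17.4), that in replicate 2 was 20.8 CPM (16.3 to 26.6), a mean of 17.3 ± 4.88 CPM (SD, n = 2). Replicate 2 was the higher library here, with intervals that overlap, whereas replicate 1 was the higher one for Mir214. Mir199b ranked 278th in replicate 1 and 247th in replicate 2.

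Mir199a-2, which lies in the same noncoding RNA as Mir214, had 40 counts in replicate 1 and 12 in replicate 2. The level in replicate 1 was 7.41 CPM (5.44 to 10.1), that in replicate 2 was 3.96 CPM (2.27 to 6.92), a mean of 5.69 ± 2.44 CPM (SD, n = 2). Only 6.19% of the detected genes had a lower mean level. The intervals of the libraries overlap, and this low gene was measured with few counts.

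Mir199a-1 had 0 counts in both libraries. The limit of a count of 0, taken as 3 counts, is 0.556 CPM for replicate 1 and 0.990 CPM for replicate 2, for reads that fit this hairpin alone. Since both of its mature arms occur in other hairpins, the 0 counts do not show that the gene was silent. Of all miRNA genes in the tables, 65.1% had 0 counts in both libraries.

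**Figure D2:**
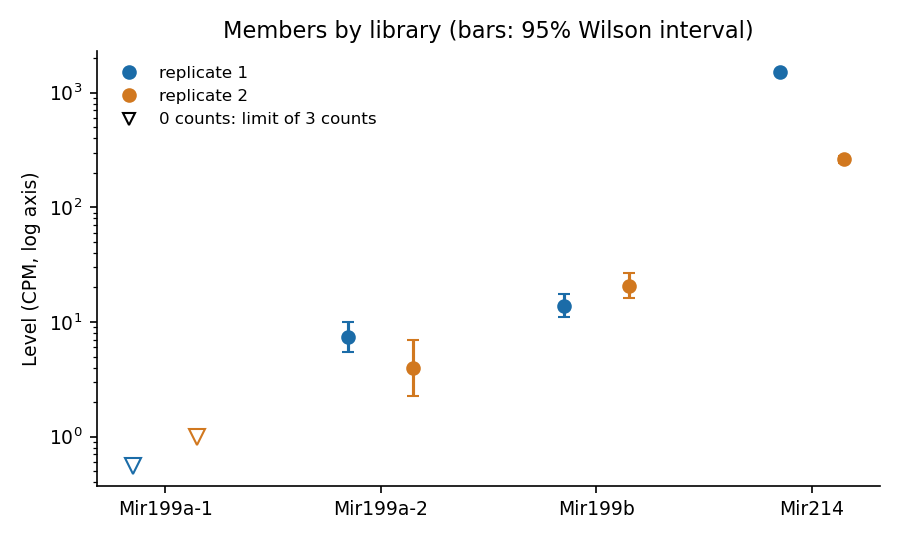
Level of each of the 4 genes in CPM on a log axis, by library, with 95% Wilson intervals as bars and open triangles at the limit of 3 counts for a count of 0. Mir214 stands at 1528 CPM in replicate 1 and 264 CPM in replicate 2, while no miR-199 gene is above 20.8 CPM.

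The order of the levels was the same in both libraries, with Mir214 above Mir199b, Mir199b above Mir199a-2 and Mir199a-1 at 0. The geometric mean level of Mir214 was 37.3-fold that of Mir199b, and that of Mir199b was 3.14-fold that of Mir199a-2. These exceed the limits for a pair of genes that the pooled spread between the libraries and the counting error set, 2.30-fold and 2.44-fold. For each count of Mir199a-2 there were 1.88 of Mir199b in replicate 1 and 5.25 in replicate 2. The larger of these ratios rests on 12 counts of Mir199a-2. The order is one of reads that fit 1 place. The tables do not give how many of the reads that fit several places, 3984008 in replicate 1 and 2302439 in replicate 2, came from the miR-199 arms, so it does not rank the amounts of mature miR-199 and miR-214.

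Among genes whose counts summed to 100 or more, those nearest to Mir214 in mean level were Mir31 (917 CPM) and Mir484 (906 CPM) above it, and Mir181c (896 CPM) and Mir671 (879 CPM) below it. The nearest to Mir199b were Mir365-2 (17.4 CPM) and Mir196a-1 (17.3 CPM) above it, and n-TSaga9 (17.3 CPM) and Mir29b-2 (17.0 CPM) below it. Above Mir199a-2 came Mir483 (11.2 CPM) and Mir505 (10.9 CPM), and no gene with that many counts stood below it. None of these 10 neighbours differed from its member by more than the limit for a pair. Their choice by nearness in level made that likely, so it is not a result of its own.

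Counts of genes with copied arms were examined over the whole table. Of 1018 genes with mature sequences in the RefSeq table, 53 had every listed arm in at least 1 other annotated hairpin, among them Mir199a-1, Mir199a-2 and Mir199b. The grouping depends on which arms are listed. Mir199b has 1 listed arm, and a gene with 1 listed arm cannot have some arms shared and some not. The unlisted stretch of Mir199b that differs by 1 base from the miR-199a genes was not counted as an arm. Of these 53 genes, 6 (11.3%) reached 10 counts in each library, Mir199a-2 and Mir199b among them, and 43 (81.1%) had 0 counts in both, Mir199a-1 among them. Of the 904 genes with no shared arm, such as Mir214, 261 (28.9%) reached 10 counts in each and 318 (35.2%) had 0 in both. The order did not follow the number of copied arms, since of 61 genes with some arms shared and some not, 39 (63.9%) reached 10 counts in each and 10 (16.4%) had 0 in both. Among genes above 0, the median count over both libraries was 48 with every listed arm shared, 218 with some shared and 18.5 with none shared. These counts describe the tables, and whether the low counts of the miR-199 genes come from their copies was not tested.

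The strand of the reads made almost no difference to the 4 genes. Mir214 had 1 antisense count in each library, and the miR-199 genes had 0. Without strand, Mir214 had 8249 counts in replicate 1 and 800 in replicate 2, and the counts of the miR-199 genes were the same as on the sense strand.

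The members shared no common difference between the libraries. Ratios are of replicate 1 over replicate 2, scaled with TMM factors, which assume that most genes do not differ, with 0.5 counts added. All 434 genes whose counts summed to 10 or more were tested (exact binomial test, two-sided), with p-values adjusted by the Benjamini-Hochberg method over all 434, and a gene was called at an adjusted p under 0.05. Of the 434 genes, 58.5% were called, 30.2% as higher in replicate 1 and 28.3% as higher in replicate 2, so a call against counting error alone is common here. Calls were more frequent among genes with more counts. With a minimum of 100 counts over both libraries, 230 of 284 genes were called. Of the 4 members 3 were tested, 1 was called higher in replicate 1 and 1 higher in replicate 2.

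Mir214 was 4.70-fold higher in replicate 1, a log2 ratio of 2.23, and its p in the exact binomial test was below the smallest number that the arithmetic holds. Among the 284 genes whose counts summed to 100 or more it had the 5th largest ratio towards replicate 1. Mir199b was 1.85-fold higher in replicate 2, a log2 ratio of -0.89 (exact binomial test, adjusted p = 0.00100), and it was the 30th counted from the gene most in favour of replicate 2. Its call was lost in 1 random thinning of the deeper library to the depth of the other. In that draw its log2 ratio was -0.52 (exact binomial test, adjusted p = 0.0954). Other draws were not made, so whether depth or the draw accounts for the lost call was not tested. Mir199a-2 had a log2 ratio of 0.56, or 1.48-fold towards replicate 1, and was not called (exact binomial test, adjusted p = 0.309). Mir199a-1 had no counts to compare.

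When the spread between the libraries over all genes, a coefficient of variation of 41.5%, took the place of counting error, 0 of the 434 genes were called by edgeR's exact test, and 23 had an unadjusted p under 0.05. Mir214 was 1 of these, with an unadjusted p of 0.0137 and an adjusted p of 0.542 in edgeR's exact test. That spread was itself estimated from the same 2 libraries, with all differences between them counted as noise. Scaling to total counts in place of TMM shifted all ratios by 0.30 on the log2 scale towards replicate 1. With total counts Mir214 was still called higher in replicate 1, as were 43.5% of the 434 genes, and Mir199b higher in replicate 2, as were 19.1%.

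**Figure D3:**
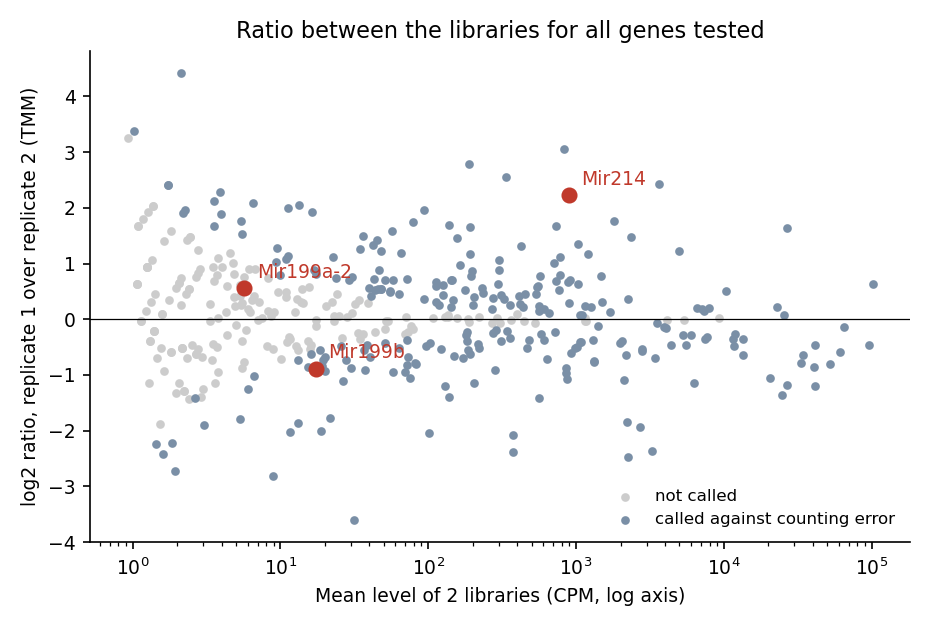
Log2 ratio of replicate 1 over replicate 2 against the mean level in CPM (log axis) for the 434 genes tested, with called genes in blue-grey, the others in light grey and the members in red. Mir214 lies at 2.23, Mir199a-2 at 0.56 and Mir199b at -0.89.

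Within the set, the change of makeup between the libraries does not depend on scaling. Mir199b held 0.897% (95% Wilson interval 0.716 to 1.12%) of the counts of the 4 genes in replicate 1 and 7.21% (5.67 to 9.12%) in replicate 2. For each count of Mir199b there were 110 of Mir214 in replicate 1 and 12.7 in replicate 2. The ratio of replicate 1 over replicate 2 was 8.67 times as large for Mir214 as for Mir199b (exact 95% interval 6.05 to 12.4, counting error only).

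The counts of Mir199a-2 and Mir214 differed from each other too, although the annotation places both in exons of the same RNA. Both arms of Mir199a-2 occur in other hairpins, so its counts leave out reads that fit several places. Neither arm of Mir214 occurs in another annotated miRNA hairpin. For each count of Mir199a-2 there were 206 of Mir214 in replicate 1 and 66.6 in replicate 2. The ratio of replicate 1 over replicate 2 was 3.10 times as large for Mir214 (exact 95% interval 1.47 to 6.05, counting error only). On the log2 scale with TMM the ratios of both genes differed by 1.67. For 109 pairs of neighbouring genes on the same strand at most 10 kb apart, each gene with at least 10 counts in both libraries, this difference had a median size of 0.70, and the Dnm3os pair had the 11th largest. Mir199a-2, the lower gene of that pair, had only 52 counts over both libraries. The comparison with other neighbouring pairs was chosen after these values were seen.

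**Figure D4:**
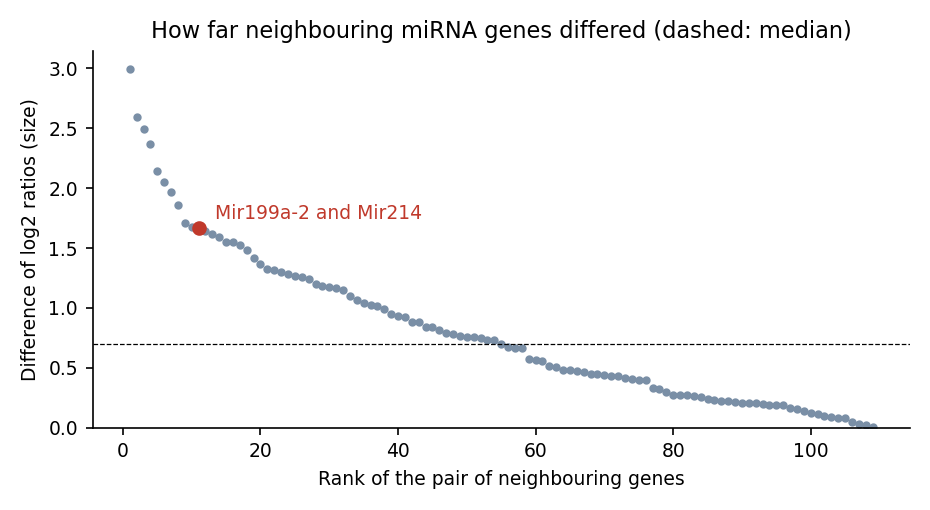
Size of the difference in log2 ratio between the libraries for 109 pairs of neighbouring miRNA genes, ranked from the largest, with the median as a dashed line and the Mir199a-2 and Mir214 pair in red. The pair lies at 1.67, the 11th of 109, above the median of 0.70.

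The 3 genes nearest to Mir214 in ratio, within the same 284 genes, were Mir702 (log2 ratio 2.05), Mir195a (2.43) and Mir483 (2.01). Mir702 and Mir483 had 13 and 11 counts in replicate 2, so their ratios are less precise than that of Mir195a, which had 34396 counts in replicate 1 and 2907 in replicate 2. The nearest to Mir199b were Mir218-2 (-0.88), Mir376a (-0.88) and Mir30b (-0.91). With 2 libraries the likeness is in 1 value only.

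Genes linked to the same cells or processes went both ways between the libraries. Mir143 and Mir145a, neighbours known from smooth muscle and pericytes, were both higher in replicate 2, the opposite of Mir214. Mir143 had 28989 CPM in replicate 1 and 53980 in replicate 2 (log2 ratio -1.20), and Mir145a had 1251 CPM in replicate 1 and 5257 in replicate 2 (log2 ratio -2.37). Of 6 genes linked to fibrosis, 5 were called towards replicate 1 and 1 towards replicate 2, against 30.2% and 28.3% of all tested. All 6 passed the minimum of 100 counts, above which 230 of 284 genes were called in either direction. The list had a median log2 ratio of 0.56, against 0.06 over all genes tested. The one higher in replicate 2 was Mir21a, a gene that is raised in many fibrotic tissues (18943 CPM in replicate 1 and 34600 CPM in replicate 2, log2 ratio -1.17).

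The miR-29 genes, known for repressing collagen messages, were all called higher in replicate 1, by little in those with the most counts. Mir29a and Mir29b-1 lie 275 bases apart, and Mir29b-2 and Mir29c 426. Mir29a had a log2 ratio of 0.18 and Mir29c of 0.23. Mir29b-1 (1.12) and Mir29b-2 (0.89) had larger ratios and fewer counts, which leave out reads that fit several places. Mir22, a gene known from heart muscle, had 42308 CPM in replicate 1 and 10990 CPM in replicate 2 (log2 ratio 1.64). The directions of these 6 genes and of Mir143 and Mir145a were the same with total counts and with DESeq2 size factors.

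Markers of other cell types moved with the libraries as well, and their part in the differences of the miR-199/214 genes was not tested. All listed genes count in the summed levels. The hepatocyte gene Mir122 had 1503 CPM in replicate 1 and 146 CPM in replicate 2 (log2 ratio 3.06). The red-cell genes were called higher in replicate 1 for 3 of 3, against 30.2% of all genes tested. They had 1210 CPM in sum in replicate 1 and 576 in replicate 2, and Mir144 and Mir451a among them lie 99 bases apart. The white-cell genes were called higher in replicate 2 for 5 of 5, against 28.3% of all genes tested. Their sum was 1928 CPM in replicate 1 and 2617 in replicate 2. All red-cell and white-cell genes passed the minimum of 100 counts, above which 230 of 284 genes were called in either direction. With total counts 3 of the white-cell genes were called, and Mir342 turned the other way.

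The endothelial pair summed to 133214 CPM in replicate 1 and 69289 in replicate 2, nearly all of it Mir126a. Of the 7 epithelial genes, 6 were tested. Of these, 1 was called towards replicate 1 and 2 towards replicate 2, against 30.2% and 28.3% of all genes tested. With total counts 2 epithelial genes were called towards each replicate, and with DESeq2 size factors Mir200c turned the other way. The 7 had 873 CPM in sum in replicate 1 and 3729 in replicate 2, nearly all of it Mir203 (822 CPM in replicate 1 and 3691 in replicate 2). Of the 6 striated muscle genes, 3 were tested and 2 were called, both higher in replicate 2, as were 28.3% of all genes tested. The 6 had 484 CPM in sum in replicate 1 and 524 in replicate 2, nearly all of it Mir206 (474 CPM in replicate 1 and 494 in replicate 2). Mir1a-2 was tested but not called, with a log2 ratio of 1.07 from 11 counts in replicate 1 and 2 in replicate 2. With total counts 1 of the 6 was called. Mir1a-1 and Mir133a-2 were at 0 in both. Their counts, like the muscle sum, leave out any reads that fit several hairpins. The 0 counts therefore do not show that these genes were silent. The 3 neural and neuroendocrine genes, chosen as candidates for the medulla, were all detected, and their sum of 31926 CPM in replicate 1 and 25758 in replicate 2 was mostly Mir375. By ratio, Mir375 was called towards replicate 1 with a log2 ratio of only 0.08, a call lost with DESeq2 size factors, while Mir7b (-0.53) and Mir137 (-0.51) were called towards replicate 2. In bulk tissue, fewer cells of a type and less RNA per cell cannot be told apart.

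**Figure D5:**
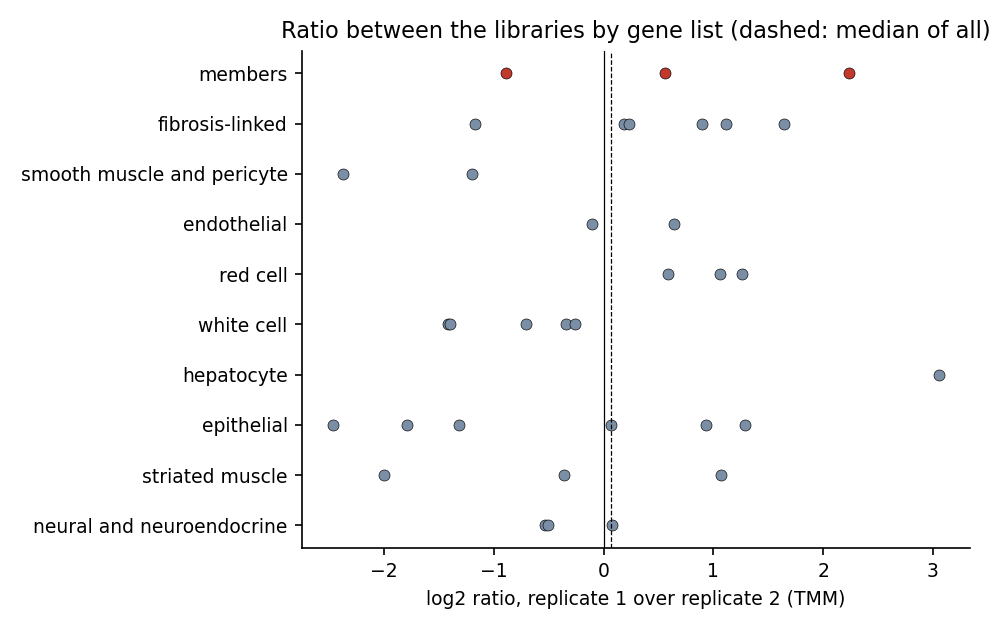
Log2 ratio of replicate 1 over replicate 2 for the tested members (red) and for the genes of each other list (blue-grey), with the median over all genes tested as a dashed line. Mir214 lies at 2.23 on the side of Mir122 (3.06), while Mir143 (-1.20) and Mir145a (-2.37) lie on the side of Mir199b (-0.89).

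Hairpins richer in GC tended towards replicate 1 (Spearman's rho 0.35 between GC content and log2 ratio, over 284 genes that share the 2 libraries). The hairpin of Mir214 has 56.4% GC, that of Mir199a-2 54.5% and that of Mir199b 52.7%, against a median of 50.0%. With a linear GC trend removed, the log2 ratio was 2.05 for Mir214, 0.43 for Mir199a-2 and -0.96 for Mir199b.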

How the data were processed

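Per the notes deposited with each library, the tables were made on mm10 with GENCODE M21. For the aligner, the counter and the mismatches allowed, nothing was given in the sources used here. The deposited values are raw read counts per miRNA gene, without strand, sense and antisense. The sense counts were used, and 4 summary entries that name no gene were left out. They held 61.4% of all reads in replicate 1 and 59.8% in replicate 2. Names, positions and hairpins came from GENCODE M21 and mature sequences from RefSeq (GRCm38.p6).

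TMM factors, the common dispersion (intercept only) and the exact test with it came from edgeR 4.0.16 (R 4.3.3), size factors from DESeq2 1.42.0, binomial tests from scipy 1.17.1 and their adjustment from statsmodels 0.14.6. The limit for a pair of genes is 1.96 standard errors on the log scale. The binomial test was tried on simulated data with counting error only, which does not cover the larger spread seen between the libraries. The test with the pooled spread and the limit for a pair were not tried in this way. The design has 1 group, so conditions could not be contrasted. The members, lists, tests and the rule for named genes were chosen with earlier results of these data known. That rule took the members, the listed genes, genes with a shared seed, and the genes nearest in level and ratio. No genome was used, so copies were sought among annotated hairpins.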

Additional observations from a re-analysis of the deposited data

How the results depend on the processing

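The number of genes called between the libraries stayed within 1.5 times of 254 under 8 of 9 alternatives, and was 0 with edgeR's pooled spread as the error. The ratios of the 3 tested members kept their direction under all alternatives run. With the pooled spread the calls of Mir214 (log2 ratio 2.23, edgeR's exact test, adjusted p = 0.542) and Mir199b (-0.89, adjusted p = 0.999) were lost, as the error is larger by construction. In 1 random thinning of the deeper library, Mir199b lost its call (-0.52, exact binomial test, adjusted p = 0.0954). Over the other alternatives its ratio ran between -0.96 and -0.58, and its adjusted p between 0.000302 and 0.0356. Mir214 ran between 2.05 and 2.53. Mir199a-2 ran between 0.40 and 0.86 and was called under none, and it had too few counts for the minimum of 100. Per 1000000 of all reads, the level was 2.23 for Mir199a-2, 6.87 for Mir199b and 348 for Mir214. Leaving out a library gave 264 to 1528 CPM for Mir214, 13.9 to 20.8 for Mir199b, 3.96 to 7.41 for Mir199a-2, and 0.897 to 7.21% for the share of Mir199b. No paired analysis was possible because there is 1 group. With 2 libraries, the counts of Mir199a-2 and Mir199b limit what could be seen.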
